A study of Mus musculus with 2 samples.

Results

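The 8 genes described here write, copy or erase methyl groups on cytosine: *Dnmt1* and *Uhrf1* (maintenance), *Dnmt3a*, *Dnmt3b* and *Dnmt3l* (de novo methylation), and *Tet1*, *Tet2* and *Tet3* (oxidation of the mark). They were chosen by symbol, and all 8 were found among the 32285 genes of the matrix. Whole testes of mouse embryos at E14.5, a stage counted in days after conception, were profiled with the 10x multiome assay, which reads RNA and open chromatin (ATAC) from the same nucleus. Parents homozygous for *Nr5a1-cre* and for *Rosa-tdTomato* gave the embryos, so that all nuclei, germ nuclei included, carry a Cre driven by *Nr5a1*, a gene of steroidogenic and gonadal somatic cells, and a Cre-dependent reporter. There is 1 RNA library and 1 ATAC library with the same barcodes, and how many embryos they came from is not stated in the labels or methods. No comparison below has a replicate, no test was possible, and each 95% interval covers counting error only.

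Methylation of CpG dinucleotides, a cytosine followed by a guanine, is copied to the new DNA strand by DNMT1, which UHRF1 brings to half-methylated sites behind the replication fork. DNMT3A and DNMT3B add the mark to unmethylated DNA, DNMT3L stimulates them without being a methyltransferase itself, and the TET enzymes oxidise the methyl group, a step towards its removal. In the mouse, primordial germ cells lose most of their methylation on the way to and in the gonad, and male germ cells regain it before birth, after they have stopped dividing.

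The deposited matrix held 9833 barcodes, of which 7198 were kept, with a median of 7952 RNA molecules (unique molecular identifiers, UMIs) and 4475 ATAC fragments per nucleus. Clusters were made without the 8 genes and without the 111 peaks in or near them, and were named from markers, so that germ, Sertoli, Leydig and other nuclei below stand for nuclei with the markers of that type. The germ class held 979 nuclei and 20356529 UMIs, at a median of 15521 UMIs per nucleus. The somatic nuclei set against them were 6088 nuclei of 8 classes at a median of 7304 UMIs: progenitor (interstitial, 3277), Sertoli (840), Leydig (793), surface epithelium (555), mesonephric mesenchyme (394), endothelial (97), pericyte (67) and immune (65). A further 44 erythroid and 87 unnamed nuclei were kept out of the somatic sum. The unnamed nuclei were led by *Pax8* (701 CPM), by which the study names its supporting-like cells. They scored highest here for mesonephric tubule markers and took no name under the naming rule. No cluster took the contractile name here, and the progenitor class is mixed: none of its markers was among the 10 leading genes of its 2 clusters, one of which (996 nuclei) was led by cell cycle genes with *Lmod1* and *Myocd*, genes of smooth muscle. At a clustering resolution of 0.6 in place of 0.3, a cluster of 1083 nuclei led by *Myh11*, *Myocd* and *Acta2* among others was named contractile, so that progenitor values below average over nuclei given that name there. Summed germ markers stood at 2929 CPM (UMIs per 1000000) in germ nuclei, and each of the 6 markers stood in somatic nuclei at 0.741% to 3.51% of its germ level. Leydig markers, which germ cells should lack, stood at 301 CPM in germ nuclei, against 275 CPM in Sertoli and 4256 CPM in Leydig nuclei. Of the germ nuclei, 23.9% were over the automatic threshold of the doublet caller, which was not used in the main values. At a finer resolution 65 germ nuclei formed a cluster (cluster 13) in which all 65 were over that threshold, at a median of 34903 UMIs. Ratios that move with these nuclei are given with and without them.

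The promoters below show how the genes differ at their starts. Each is the 300 bases from 250 before to 50 after a transcription start of RefSeq, on GRCm38.p6, written in the direction of the gene. In the promoters of the maintenance genes *Dnmt1* (chr9:20952574-20952873, minus strand) and *Uhrf1* (chr17:56304063-56304362, plus strand), the capitals mark E2F-type sites, GC boxes and CCAAT boxes. In the internal promoter of *Dnmt3a* (chr12:3891494-3891793, plus strand), the middle promoter of *Dnmt3l* (chr10:78049592-78049891, plus strand) and the promoter of *Tet1* (chr10:62887275-62887574, minus strand), the capitals mark CpG dinucleotides, the substrate of these enzymes.
Dnmt1: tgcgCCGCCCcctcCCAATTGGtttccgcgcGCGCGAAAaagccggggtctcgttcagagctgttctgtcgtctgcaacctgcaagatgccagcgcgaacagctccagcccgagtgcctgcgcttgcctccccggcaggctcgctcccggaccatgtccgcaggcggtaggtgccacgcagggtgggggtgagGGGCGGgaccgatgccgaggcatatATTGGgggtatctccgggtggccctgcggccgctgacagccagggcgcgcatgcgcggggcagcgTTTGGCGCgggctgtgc
Uhrf1: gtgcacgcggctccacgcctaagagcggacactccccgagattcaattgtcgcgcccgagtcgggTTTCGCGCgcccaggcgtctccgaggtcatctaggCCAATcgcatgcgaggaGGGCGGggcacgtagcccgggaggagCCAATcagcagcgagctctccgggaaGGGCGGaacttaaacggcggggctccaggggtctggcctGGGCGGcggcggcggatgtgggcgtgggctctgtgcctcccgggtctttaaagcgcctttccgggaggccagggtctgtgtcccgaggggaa
Dnmt3a, internal start: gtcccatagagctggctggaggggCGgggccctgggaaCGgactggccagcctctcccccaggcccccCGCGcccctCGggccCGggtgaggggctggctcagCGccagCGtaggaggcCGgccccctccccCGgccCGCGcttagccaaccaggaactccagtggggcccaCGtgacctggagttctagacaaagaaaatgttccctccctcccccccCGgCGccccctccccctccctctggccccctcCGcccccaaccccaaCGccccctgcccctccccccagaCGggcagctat
Dnmt3l, middle start: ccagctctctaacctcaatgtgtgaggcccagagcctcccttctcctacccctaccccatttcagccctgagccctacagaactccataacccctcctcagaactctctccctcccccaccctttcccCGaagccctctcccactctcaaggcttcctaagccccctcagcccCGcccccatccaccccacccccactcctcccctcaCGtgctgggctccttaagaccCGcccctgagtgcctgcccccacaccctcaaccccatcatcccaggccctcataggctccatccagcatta
Tet1: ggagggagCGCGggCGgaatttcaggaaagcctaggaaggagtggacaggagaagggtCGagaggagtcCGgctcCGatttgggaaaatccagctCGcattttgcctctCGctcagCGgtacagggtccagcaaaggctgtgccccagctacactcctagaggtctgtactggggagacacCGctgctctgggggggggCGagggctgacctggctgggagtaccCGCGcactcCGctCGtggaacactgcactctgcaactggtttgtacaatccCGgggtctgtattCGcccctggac
E2F-type sites were searched as TTTGGCGC, TTTCCCGC, TTTCGCGC and TTTGCCGC, GC boxes as GGGCGG and CCAAT boxes as CCAAT, on both strands, and sites may overlap. An E2F-type site was found in 2.26% of all 32851 promoters of the same length, a GC box in 35.7% and a CCAAT box in 37.4%. The *Dnmt1* promoter shown held 2 E2F-type sites, 2 GC boxes and 3 CCAAT boxes, and the *Uhrf1* promoter held 1, 3 and 2. None of the 10 promoter sequences of the other 6 genes held an E2F-type site, nor did the second *Uhrf1* promoter or the remaining 2 of *Dnmt1*. The *Dnmt1* and *Uhrf1* promoters shown held 33 CpGs each, more than 91.4% of all promoters had. The middle *Dnmt3l* promoter held 4 CpGs, below the median of 7, and its other promoters held 6 and 3. *Tet2* had the most CpGs of the 8 genes at 57, more than 99.8% of promoters had, and the *Tet1* promoter held 17.

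*Dnmt1*, the maintenance methyltransferase (chr9, 20907209 to 20959888, minus strand), was read at 34.3 CPM in germ nuclei (95% interval 31.8 to 37.0, 699 UMIs). Among the large somatic classes it stood at 58.2 CPM in progenitor, 54.7 in Sertoli, 47.4 in surface epithelium, 45.3 in mesonephric mesenchyme and 27.5 in Leydig nuclei. The 44 erythroid nuclei were highest at 109 CPM (79.5 to 147), and immune nuclei followed at 75.3 CPM (52.8 to 104), with intervals that overlap. From the erythroid to the endothelial class no step between neighbours in this order passed counting error, and germ nuclei lay below endothelial nuclei (1.30 times, 1.04 to 1.60). Classes further apart did differ: the erythroid interval lay above that of progenitor nuclei (55.2 to 61.4). The progenitor interval lay above that of surface epithelium (41.8 to 53.7). Leydig nuclei were lowest (24.2 to 31.2), with an interval below that of germ nuclei. The 87 unnamed nuclei lay between them at 33.1 CPM and differed from neither beyond counting error.

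*Uhrf1*, which recruits DNMT1 to replicated DNA (chr17, 56303321 to 56323486, plus strand), followed a like order. It was read at 15.1 CPM in germ (13.4 to 16.9), 32.8 in Sertoli, 32.6 in surface epithelium, 32.2 in progenitor and 28.8 in mesonephric mesenchyme nuclei. Leydig nuclei were lowest at 11.8 CPM (9.64 to 14.3), and germ nuclei lay above them by 1.28 times (1.02 to 1.61). Over 10 classes *Dnmt1* and *Uhrf1* had a Pearson r of 0.894 and a Spearman rho of 0.915 on log2(CPM + 1). The points share 1 library, and no other pair of the 8 genes with at least 500 UMIs reached this r.

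*Dnmt3a*, a de novo methyltransferase (chr12, 3807030 to 3914443, plus strand), was read in all large somatic classes at a narrow range of 235 to 266 CPM and in germ nuclei at 106 CPM (102 to 111). No step between neighbours among the 8 somatic classes passed counting error, and the lowest of them, immune nuclei, stood 1.92 times (1.55 to 2.35) above germ nuclei. Classes further apart did differ: the intervals of Sertoli (256 to 276) and progenitor nuclei (254 to 267) lay above that of Leydig nuclei (225 to 245). The 44 erythroid nuclei, outside the somatic sum, were lowest at 59.7 CPM (38.2 to 88.8), with germ nuclei 1.78 times (1.19 to 2.78) above them. The 87 unnamed nuclei, also outside it, were highest at 293 CPM (262 to 328). With every nucleus sampled down to 2000 UMIs (thinned), where 2 germ and 72 somatic nuclei were too shallow, a *Dnmt3a* UMI was found in 14.2% of germ and 38.7% of somatic nuclei. Without thinning the shares were 58.9% and 78.6%.

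*Dnmt3b*, the second de novo methyltransferase (chr2, 153649450 to 153687730, plus strand), stood at 27.7 CPM in Sertoli (24.6 to 31.1) and 28.1 CPM in endothelial nuclei (21.7 to 35.8). It was lower in progenitor (14.2 CPM), surface epithelium (95% interval 11.4 to 18.1), mesonephric mesenchyme (16.2), Leydig (10.6) and germ nuclei (9.28, 8.01 to 10.7). The Sertoli level was thus the only one among the 5 large somatic classes whose interval lay apart from all the others.

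*Dnmt3l*, the cofactor without catalytic activity (chr10, 78042287 to 78063622, plus strand), was the rarest of the 8 with 64 UMIs in all kept nuclei. Germ nuclei held 59 of them (2.90 CPM, 2.21 to 3.74), progenitor nuclei 4 and Leydig nuclei 1. The other classes held none: in Sertoli nuclei 0 UMIs allow, at 3 counts, a level of up to 0.292 CPM (0.359 CPM by the exact interval). By the same rule 0 of 840 nuclei allow up to 0.357% of nuclei with a UMI, which is no limit on the nuclei that express the gene. The somatic level was 3.14% of the germ level, inside the range of the germ markers given above. By class, on these 4 and 1 UMIs, it was 5.78% in progenitor and 3.87% in Leydig nuclei, above the highest germ marker there (2.81% and 3.13%). A *Dnmt3l* UMI was found in 52 germ nuclei, 5.31% of them (3.99% to 6.91%), and in 0.0821% of somatic nuclei. After thinning, 0.409% of germ and 0.0166% of somatic nuclei held one.

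*Tet1* (chr10, 62804570 to 62899118, minus strand) was read at 303 CPM in germ nuclei (296 to 311) and at 25.1 CPM (immune) to 80.4 CPM (endothelial) in the somatic classes. Germ nuclei stood 3.77 times (3.26 to 4.39) above the next class. Among the other classes, neighbours in the order did not differ beyond counting error except that pericyte nuclei stood 2.09 times (1.06 to 4.41) above immune nuclei. Classes further apart did differ: the interval of Sertoli nuclei (73.4 to 84.4) lay above that of Leydig nuclei (50.9 to 60.8). In endothelial and erythroid nuclei (80.4 and 77.1 CPM) the summed germ markers stood at 242 and 463 CPM, against 36.7 to 96.1 CPM in the other classes apart from germ, and 38.1% and 18.2% of their nuclei were over the automatic doublet threshold. Their part in the *Tet1* levels of these classes was not tested. A *Tet1* UMI was found in 88.4% of germ and 36.9% of somatic nuclei, and after thinning in 44.7% (41.6% to 47.9%) and 12.4% (11.5% to 13.2%). The somatic level of *Tet1* was 23.2% of the germ level, against 3.51% for the germ marker with the highest such share.

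*Tet2* (chr3, 133463679 to 133544390, minus strand) was read at 258 CPM in germ (251 to 265), 263 in mesonephric mesenchyme, 222 in progenitor, 210 in Leydig and 175 in surface epithelium nuclei. Sertoli nuclei were lowest at 107 CPM (100 to 113). From pericyte through immune and mesonephric mesenchyme to germ nuclei, no step between neighbours in the order passed counting error. Progenitor nuclei came next, and germ nuclei stood 1.17 times (1.12 to 1.21) above them. After thinning, 37.5% of germ, 33.8% of progenitor and 16.8% of Sertoli nuclei held a *Tet2* UMI.

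*Tet3* (chr6, 83362373 to 83456392, minus strand) had germ nuclei at the opposite end of the order from *Tet1*, with a Pearson r of -0.887 and a Spearman rho of -0.309 between these genes over 10 classes. Immune nuclei were highest at 285 CPM (239 to 337) and Sertoli nuclei highest among the large classes at 195 CPM (186 to 203). The 87 unnamed nuclei lay between them at 216 CPM (189 to 246). Progenitor nuclei followed at 140 CPM, mesonephric mesenchyme at 123, surface epithelium at 120 and Leydig nuclei at 113. Germ nuclei were lowest at 56.8 CPM (53.6 to 60.2), with Leydig nuclei 2.0 times (1.83 to 2.17) above them. After thinning, a *Tet3* UMI was found in 7.68% of germ and 24.9% of somatic nuclei.

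**Figure D1:**
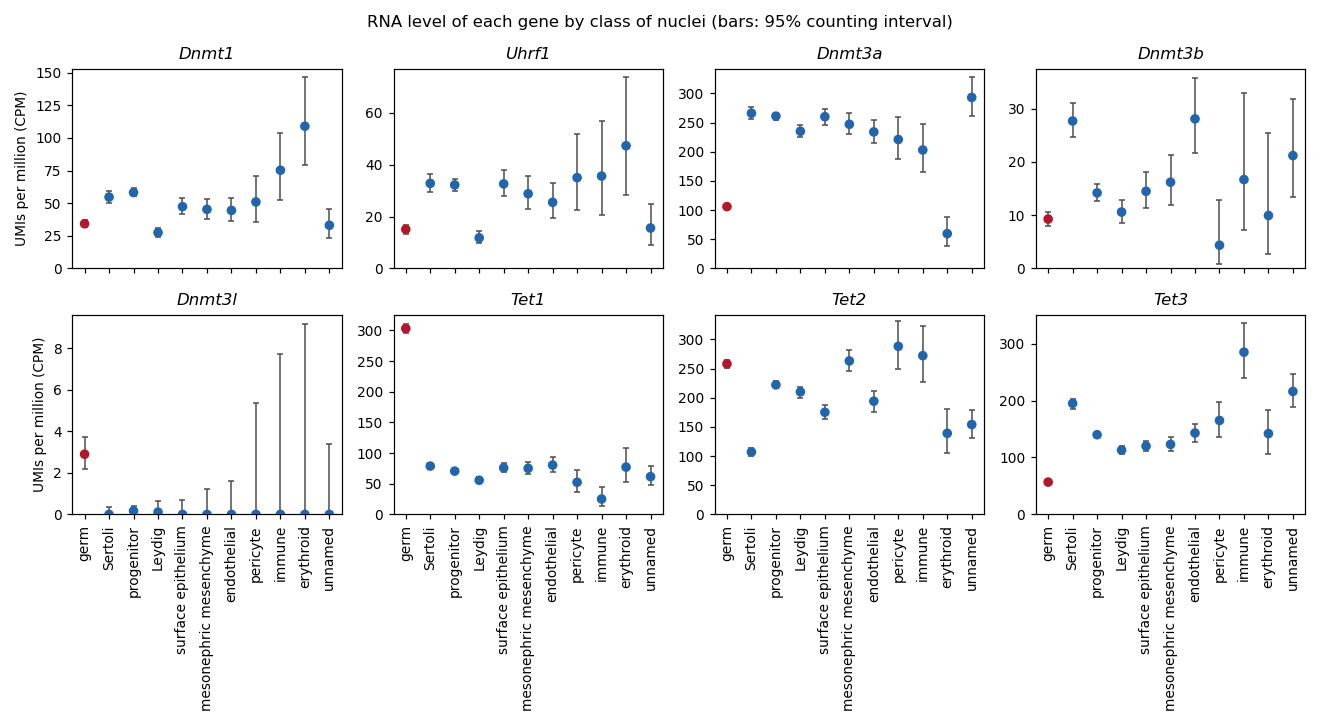
RNA level of each gene in CPM (y axis, from 0) for each class of nuclei (x axis), with germ nuclei in red, all other classes in blue and bars for the 95% counting interval. Germ nuclei are highest for Tet1 (303 CPM) and Dnmt3l (2.90 CPM) and lie below each large somatic class for Dnmt3a (106 CPM) and Tet3 (56.8 CPM).

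Set against all somatic nuclei together, 2 of the 8 genes were higher in germ nuclei by 2-fold or more and 2 were lower by as much. *Tet1* was higher by 4.32 times (4.14 to 4.49) and *Dnmt3l* by 31.8 times (12.9 to 102), the latter over 64 UMIs. *Dnmt3a* stood at 0.417 times (0.398 to 0.436) and *Tet3* at 0.392 times (0.369 to 0.417) the somatic level. *Uhrf1* at 0.527, *Dnmt3b* at 0.554 and *Dnmt1* at 0.683 times were lower by less, and *Tet2* at 1.32 times (1.27 to 1.36) was higher by less. Of the 7 genes with at least 100 UMIs, *Tet1* alone was 2-fold or more higher, and *Dnmt3a* and *Tet3* were 2-fold or more lower. Over all 15135 genes with as many UMIs, 16.6% were 2-fold or more higher in germ nuclei and 20.2% were as much lower, with a median ratio of 1.03. The counts over so few genes are thus near the background, and the description rests on each gene's own values. *Tet1* had a higher ratio than 92.6% of those genes, while *Tet3* exceeded 14.0% and *Dnmt3a* 15.4%.

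The low values in germ nuclei moved with the doubtful nuclei. Without cluster 13, which was left out after its values were seen, germ over somatic fell to 0.312 (0.294 to 0.330) for *Dnmt3a* and 0.278 (0.256 to 0.302) for *Tet3*, *Uhrf1* stood at 0.426, *Dnmt3b* at 0.452 and *Tet1* at 4.80 (4.61 to 5.0). Other settings lowered *Tet1*, to 3.02 with stricter minimums on nuclei and to 2.17 at resolution 0.6, where cluster 8 alone kept the germ name. With all nuclei over the automatic doublet threshold removed, the ratio was 0.218 for *Dnmt3a*, 0.160 for *Tet3*, 0.340 for *Uhrf1* and 0.441 for *Dnmt3b*, and *Tet1* stood at 5.83. In these germ nuclei *Tet3* was read at 23.7 CPM and *Dnmt3a* at 55.3 CPM. With free RNA subtracted, at 39.0% of germ and 7.51% of somatic UMIs, the ratio was 0.142 for *Dnmt3a* and 0.101 for *Tet3*. These shares are bounds set by markers of other classes, not measured amounts of free RNA. Summed Leydig markers stood at 301 CPM in germ, 275 in Sertoli and 332 in progenitor nuclei. Per nucleus rather than per UMI, *Dnmt1* (1.57 times), *Uhrf1* (1.22) and *Dnmt3b* (1.28) were higher in germ nuclei, which hold more UMIs each. On that scale *Dnmt3a* (0.961) and *Tet3* (0.905) were no longer 2-fold lower.

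**Figure D2:**
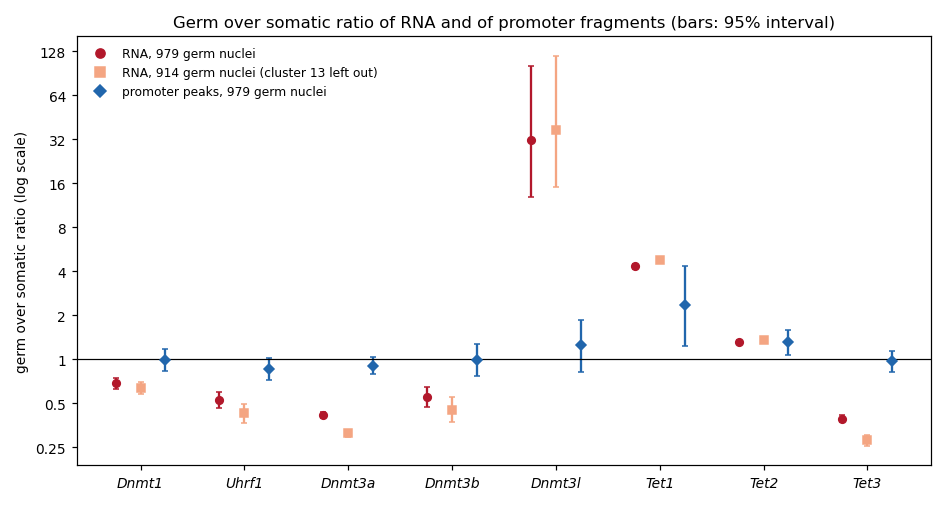
Germ over somatic ratio on a log scale (y axis) of each gene (x axis) for RNA over all 979 germ nuclei, for RNA over the 914 left without cluster 13, and for fragments at promoter peaks, with 95% intervals. RNA ratios run from 0.392 to 31.8, while 7 of the 8 promoter ratios lie between 0.861 and 1.30. That of Dnmt3l (1.24) rests mostly on a peak over the start of Aire.

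Within the germ class, the genes split along the clusters of the finer resolution. Cluster 6 (537 nuclei, led by *Lhx1* and *Eya2*) and cluster 8 (377 nuclei, with *Spocd1* and *Tdrd9* among its leading genes) were made without the 8 genes, and at this resolution clusters 6 and 13 kept no name under the naming rule. The summed germ markers were 3471 CPM in cluster 6 and 3268 CPM in cluster 8, and the summed genes of the S and G2/M phases 9079 and 6574 CPM. *Tet1* stood at 518 CPM (503 to 534) in cluster 6 and 152 CPM (144 to 161) in cluster 8, a ratio of 0.294 (0.276 to 0.314) for cluster 8 over cluster 6. *Dnmt3l* went the other way, with 3 UMIs in cluster 6 and 51 in cluster 8 (0.372 and 6.46 CPM), a ratio of 17.4 (5.62 to 87.0). *Tet3* was higher in cluster 8 by 2.04 times (1.73 to 2.41, 26.6 against 54.3 CPM) and *Dnmt3a* by 1.5 times (1.34 to 1.68, 63.7 against 95.4 CPM).

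*Dnmt1* was slightly lower in cluster 8 (0.830, 0.694 to 0.991). For *Uhrf1* (1.17), *Dnmt3b* (1.40) and *Tet2* (1.04) the interval of the ratio held 1. *Tet1* was still above every somatic class in cluster 8, whose lower bound of 144 CPM lies over the upper bound of 109 CPM in erythroid nuclei, the highest of any other class. Cluster 13 held 203 CPM of *Dnmt3a* and 117 CPM of *Tet3*, between the other germ clusters and the somatic level, and a summed germ marker level of 1320 CPM. Of the nuclei over the automatic doublet threshold, 66 lay in cluster 6 and 103 in cluster 8. Their part in the differences between these clusters was not tested.

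**Figure D3:**
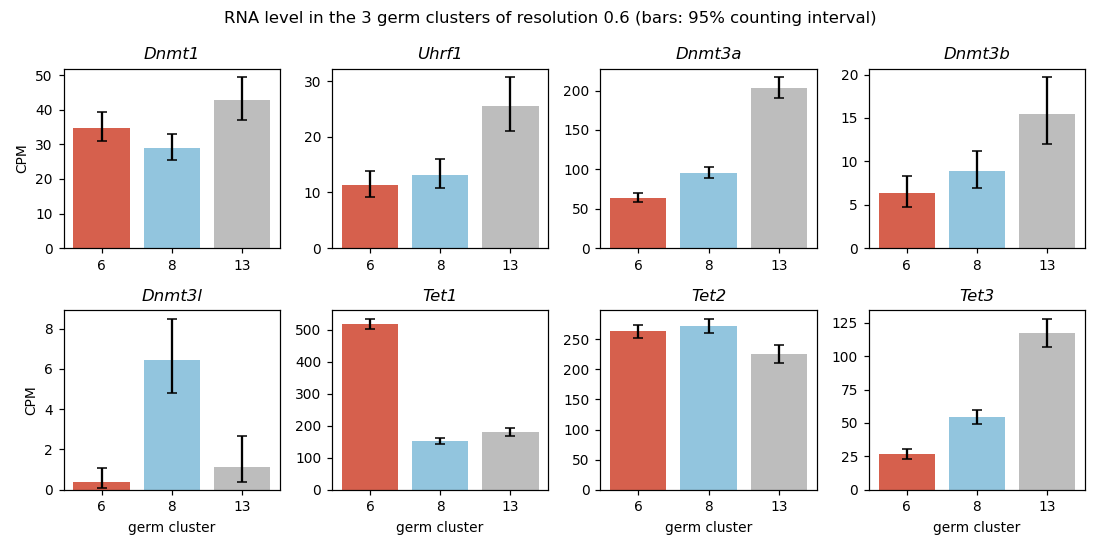
RNA level in CPM (y axis, from 0) of each gene in the 3 germ clusters of resolution 0.6, numbered 6, 8 and 13 on the x axis, with 95% counting intervals. Tet1 is highest in cluster 6 (518 CPM), Dnmt3l in cluster 8 (6.46 CPM), and Dnmt3a and Tet3 in cluster 13, where all 65 nuclei are over the automatic doublet threshold.

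The maintenance genes followed the genes of the cell cycle in each class examined. Nuclei of a class were ordered by the share of their UMIs on 96 S and G2/M phase genes from the lists of Seurat. Of the 8 genes, any on those lists was taken out first, and its rise with the score would follow in part from the choice of list. The 25% of nuclei with the highest score were set against the 25% with the lowest. The score is continuous: 191 germ, 79 Sertoli, 183 progenitor and 86 Leydig nuclei lay within 10% of the upper limit. *Uhrf1* rose from 3 to 107 UMIs in Sertoli nuclei (1.56 to 38.5 CPM, 24.7 times, 8.22 to 122). It rose from 4.22 to 50.1 CPM in progenitor nuclei (11.9 times, 7.59 to 19.7) and from 2.66 to 30.1 CPM in Leydig nuclei (11.3 times, 4.66 to 35.7). The size depended on the genes of the score: with G2/M genes alone *Uhrf1* stood at 4.23 times in Sertoli, 4.80 in progenitor and 26.4 in Leydig nuclei, and with S phase genes alone at 18.6, 13.5 and 6.10 times. *Dnmt1* was higher in the high-score nuclei by 2.26 times in Sertoli (1.68 to 3.07), 2.71 in progenitor (2.24 to 3.30) and 2.78 in Leydig nuclei (1.86 to 4.30). In progenitor nuclei the *Dnmt1* ratio was 4.33 (3.58 to 5.29) with S phase and 1.90 (1.61 to 2.26) with G2/M genes alone. In germ nuclei the low-score nuclei already held *Uhrf1* at 10.2 CPM and *Dnmt1* at 26.8 CPM, and the ratios were 2.15 (1.54 to 3.03) and 2.08 (1.70 to 2.57). For *Uhrf1* in germ nuclei the ratio was 3.87 with S phase and 1.49 with G2/M genes alone.

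*Dnmt3b* was higher in the high-score nuclei by 2.0 times in progenitor (1.42 to 2.87) and 2.14 in Leydig nuclei (1.20 to 4.01), and stood at 1.0 (0.680 to 1.48) in germ nuclei. In Sertoli nuclei it stood at 1.65 (1.14 to 2.44), but the interval held 1 with S phase genes alone (1.37, 0.954 to 2.0) and between the highest and lowest 10% (1.41, 0.777 to 2.66). *Dnmt3a* ranged from 0.825 (germ) to 1.01 (Leydig), but between the highest and lowest 10% of nuclei it stood at 0.545 (0.436 to 0.679) in germ, 0.628 (0.515 to 0.766) in Sertoli, 0.904 in progenitor and 0.864 in Leydig nuclei. In germ nuclei its interval held 1 with S phase (1.01, 0.886 to 1.15) or G2/M genes alone (0.962, 0.864 to 1.07). *Tet2* and *Tet3* were lower in high-score germ nuclei, at 0.667 (0.613 to 0.724) and 0.651 (0.551 to 0.769), and *Tet2* stood at 0.596 (0.487 to 0.728) in Sertoli nuclei, where its interval held 1 with G2/M genes alone (0.848, 0.699 to 1.03). In progenitor nuclei *Tet2* was lower per UMI too, at 0.794 (0.736 to 0.857). There it stood at 0.793 with S phase genes alone, 0.873 with G2/M genes alone and 0.826 between the highest and lowest 10%. Over equal numbers of nuclei its progenitor UMIs rose from 1206 to 1534. Low-score germ nuclei included 109 nuclei over the automatic doublet threshold and high-score ones 62, with markers of other classes at 992 and 746 CPM, and without the nuclei over that threshold *Tet3* stood at 0.424. It stood at 0.279 between the highest and lowest 10%. Per UMI, *Tet1* differed in direction by class: it was higher in high-score germ nuclei by 2.04 times (1.90 to 2.19, 219 against 446 CPM) and lower in high-score Sertoli nuclei (0.719, 0.583 to 0.887). In progenitor nuclei it stood at 0.808 (0.704 to 0.927), with an interval that held 1 with G2/M genes alone (0.877, 0.765 to 1.01), between the highest and lowest 10% (0.958, 0.758 to 1.22) and without the nuclei over the automatic doublet threshold (0.845, 0.711 to 1.01). Over equal numbers of nuclei *Tet1* did not fall in any of these classes. From low to high score its UMIs went from 1175 to 2187 in germ, 180 to 187 in Sertoli, 373 to 483 in progenitor and 109 to 158 in Leydig nuclei. *Dnmt3l* fell from 25 to 7 UMIs between low-score and high-score germ nuclei (0.307, 0.112 to 0.730), a ratio whose interval held 1 with S phase genes alone (0.826, 0.297 to 2.26), between the highest and lowest 10% (0.183, 0.00406 to 1.42) and within cluster 8 (0.509, 0.210 to 1.16).

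Of the 7 genes with at least 50 UMIs, 3 were 1.5-fold or more higher in high-score germ nuclei (*Dnmt1*, *Uhrf1* and *Tet1*), against 9.02% of all genes with as many UMIs. In Sertoli, progenitor and Leydig nuclei the 3 were *Dnmt1*, *Uhrf1* and *Dnmt3b*, against 10.1%, 10.6% and 16.6% of all genes. In germ nuclei 2 were 1.5-fold or more lower (*Tet2* and *Tet3*), against 12.2%. The germ score moved with the clusters: cluster 6 gave 190 of the 244 high-score nuclei and cluster 8 gave 36, while they gave 89 and 130 of the low-score nuclei. Within cluster 6 alone *Tet1* was higher in the high-score nuclei by 1.43 times (1.31 to 1.56) and *Dnmt1* by 3.03 times (2.13 to 4.39), and within cluster 8 by 1.49 (1.27 to 1.75) and 1.13 times (0.812 to 1.59). These splits were chosen after the data were seen, and in cluster 8 *Tet2* no longer differed by score at 1.03 (0.913 to 1.16), while in cluster 6 it stood at 0.470 (0.414 to 0.533). *Tet3* stood at 0.825 (0.639 to 1.07) in cluster 8 and 0.611 (0.423 to 0.879) in cluster 6.

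In Leydig nuclei, 84 of the 198 high-score and 15 of the 198 low-score nuclei were over the automatic doublet threshold, and the summed Leydig markers were 2883 and 5255 CPM. Markers of other classes stood at 1008 and 501 CPM, and the study describes fetal Leydig cells as non-proliferative. Without the nuclei over that threshold, *Dnmt3b* stood at 0.991 (0.464 to 2.12), *Dnmt1* at 2.11 (1.26 to 3.63) and *Uhrf1*, on fewer than 50 UMIs, at 28.7 (4.76 to 1174). At like rank of score, germ nuclei stayed apart from the other classes for some genes only. *Tet1* was 2.33 to 3.77 times higher in low-score germ nuclei than in low-score Sertoli, progenitor and Leydig nuclei, and 6.62 to 8.06 times higher among high-score nuclei. *Uhrf1* changed side: in low-score nuclei it was higher in germ by 2.43 to 6.56 times, and in high-score nuclei it was lower, at 0.439 to 0.732 times. High-score Sertoli and progenitor nuclei had a summed level of the cycle genes of 14508 and 15299 CPM, against 12152 CPM in germ and 6990 CPM in Leydig nuclei. Low-score germ nuclei had 5175 CPM, against 1996 in Sertoli, 1712 in progenitor and 1471 in Leydig nuclei, so the scores are not matched between classes at either end.

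**Figure D4:**
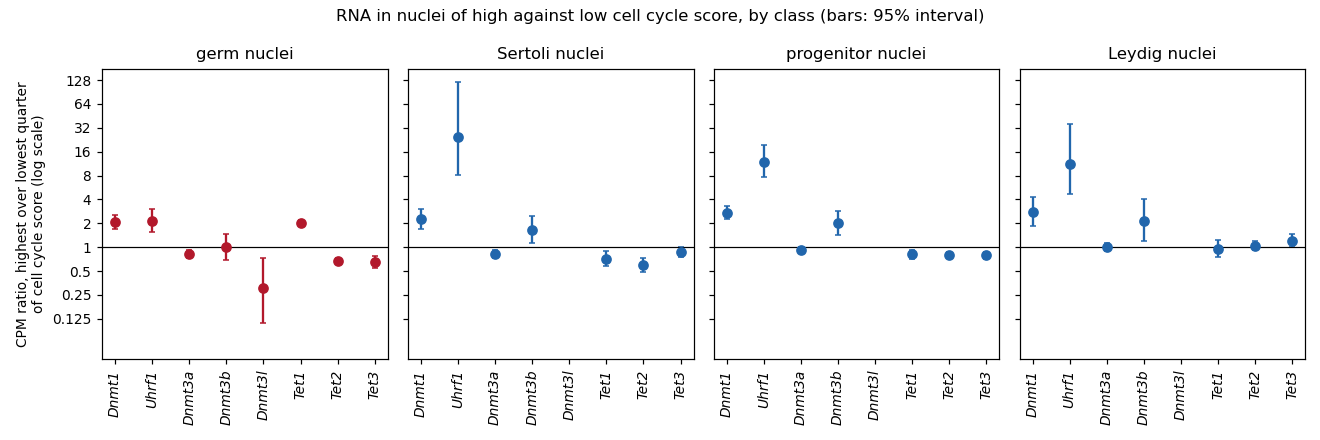
Ratio of CPM between the 25% of nuclei with the highest and the 25% with the lowest cell cycle score (log scale, y axis) for each gene (x axis) in germ, Sertoli, progenitor and Leydig nuclei, with 95% intervals. Uhrf1 rises 24.7-fold in Sertoli and 2.15-fold in germ nuclei (4.23 and 1.49 with G2/M genes alone), and Tet1 is above 1 in germ nuclei only; Dnmt3l is drawn for germ nuclei alone, since the compared nuclei of each other class held at most 1 UMI.

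Per fragment at peaks, the promoters of the 8 genes had ratios nearer 1 than their RNA per UMI, by little for *Tet2*. For *Dnmt3l* most of the fragments lay over the start of another gene. Promoter peaks lay within 1 kb of a GENCODE start, and unique fragments over them were counted per 1000000 fragments at peaks (FPM). Germ over somatic was 0.991 for *Dnmt1* (0.830 to 1.18), 0.861 for *Uhrf1* (0.725 to 1.02), 0.904 for *Dnmt3a* (0.792 to 1.03), 0.994 for *Dnmt3b* (0.772 to 1.27) and 0.965 for *Tet3* (0.814 to 1.14). *Tet2* was higher by 1.30 times (1.06 to 1.58, 50.8 against 39.2 FPM). *Dnmt3l* stood at 1.24 (0.814 to 1.85), with 20 of 32 germ and 77 of 121 somatic fragments at a peak over the start of *Aire*. *Tet1* was higher by 2.35 times (1.23 to 4.33), over 17 germ and 34 somatic fragments at a peak 242 bases from its first start. Of the somatic fragments 28 came from Sertoli nuclei, the class with the highest level at 17.5 FPM (11.6 to 25.2), against 6.91 in germ (4.03 to 11.1), 0.607 in progenitor and 0 in Leydig nuclei. Within 250 bases of the start itself this Sertoli lead was not seen. Sertoli nuclei held 3 fragments there (1.87 FPM, 0.386 to 5.47) and germ nuclei 7 (2.85 FPM, 1.14 to 5.86). Of the 13 promoter peaks with at least 50 fragments, 1 was 2-fold or more higher in germ nuclei and 0 were as much lower, against 10.2% and 8.19% of all 19138 promoter peaks, whose median ratio was 1.13. For *Dnmt3a* and *Tet3*, a lower RNA level in germ nuclei thus stood beside a summed promoter signal whose interval held 1. The summed *Dnmt3a* interval lay below the median of 1.13. Its promoter peak over the first start (chr12:3806136-3807088) was lower in germ nuclei, at 0.734 (0.576 to 0.925). Its other promoter peaks stood at 1.04 (0.827 to 1.30) and 0.973 (0.771 to 1.22).

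Several of the genes have more than 1 start. *Dnmt3a* has a first start at 3807030 and an internal one at 3891728, 84.7 kb further, from which a shorter transcript begins. Somatic nuclei held 84.8 FPM at the first start, summed over 2 peaks, and 39.3 at the internal start, with 1 peak. Germ nuclei held 74.0 and 38.2 FPM. Within 250 bases of the starts themselves this lead of the first start was not seen. Somatic nuclei held 292 fragments there at the first and 339 at the internal start, and germ nuclei 59 and 85. Between the germ clusters the internal start was the one that differed: cluster 8 held 51 fragments and cluster 6 held 33, or 56.6 and 31.3 FPM, a ratio of 1.81 (1.14 to 2.89). At the first start the ratio was 0.761 (0.526 to 1.09). The RNA counts are summed over the gene and do not say from which start a transcript came.

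*Dnmt3l* has 3 groups of starts, with peaks at the first and the last. The peak of the first group lies over the start of *Aire*, which overlaps *Dnmt3l* on the other strand. No peak was called at the middle start, at 78049842, whose CpG-poor sequence is shown above. Within 250 bases of it, 12 fragments came from germ and 13 from somatic nuclei, which is 4.88 and 1.12 FPM and a ratio of 4.34 (1.81 to 10.3). Of the somatic fragments, 11 came from progenitor nuclei and 0 from Sertoli or Leydig nuclei. Of the 12 germ fragments, 11 came from cluster 8 and 1 from cluster 6, a ratio of 12.9 (1.87 to 554), on the side where the *Dnmt3l* RNA lay. At the last start the ratio of germ to somatic was 1.28 (0.616 to 2.47).

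The *Tet1* start of RefSeq lies 7310 bases from the nearest GENCODE start used for the promoter peaks, inside a peak at chr10:62886911-62887722. That peak held 18.7 FPM in germ and 16.6 in somatic nuclei, a ratio of 1.13 (0.798 to 1.56), where the RNA differed by 4.32 times. Next to it, on the side of the gene body, the peak at chr10:62885824-62886590 was higher in germ nuclei by 1.66 times (1.06 to 2.52). *Tet3* has a first start at 83456392 and a second 14.7 kb further, with ratios of 1.16 (0.905 to 1.48) and 0.828 (0.651 to 1.04). The 2 *Uhrf1* promoter peaks differed from each other: the upstream one (chr17:56302764-56303457) stood at 0.501 (0.341 to 0.715) and the one over the promoter shown above at 1.06 (0.870 to 1.29). The upstream *Dnmt1* start at 20959888 had no peak, with 2 germ and 8 somatic fragments within 250 bases.

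Away from the starts, peaks along the 8 genes were more often lower than higher in germ nuclei. Of 31 such peaks in the gene bodies or within 10 kb of them, with at least 50 fragments, 10 were 2-fold or more lower and 3 as much higher. Over the 48034 peaks with as many fragments that lay away from any annotated start, 38.4% were as much lower and 7.43% as much higher (29.8% and 8.22% over all 67172 peaks, promoters included), so the counts are near the background and nothing is read from them. The 31 peaks lay away from the starts of the 8 genes only, and include peaks over the starts of *Eif3g*, *Kdm4b* and *Icosl*. The higher peak at chr6:83421880-83422739 lies 888 bases from a start of *5430434F05Rik*. In *Dnmt3a*, the intronic peak at chr12:3825368-3826221, 18.8 kb from the first start, was higher in germ nuclei by 3.62 times (2.33 to 5.57, 16.3 against 4.50 FPM). The smallest ratio in that gene was 0.277 (0.0732 to 0.741) at the intronic peak chr12:3871623-3871984. The intronic *Dnmt3a* peak at chr12:3833762-3834529 stood at 58.1 FPM in surface epithelium and 12.6 in germ nuclei.

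In *Tet1*, the intronic peak at chr10:62883768-62884695 had the largest ratio, 1.96 (1.10 to 3.36), and that at chr10:62846931-62847744 the smallest, 0.353 (0.126 to 0.802). In *Tet3*, the largest was 2.16 (1.14 to 3.93) at chr6:83421880-83422739 and the smallest 0.247 (0.0889 to 0.555) at chr6:83427622-83428514, both intronic. The single other peak of *Tet2*, at chr3:133515871-133516748 in an intron, stood at 0.273 (0.0866 to 0.663). Near *Dnmt1*, a peak over the start of *Eif3g* stood at 1.39 (1.10 to 1.73) and a peak upstream, at chr9:20965679-20966476, at 0.434 (0.154 to 0.997). The single other peaks near *Uhrf1* and *Dnmt3l* lie over the starts of *Kdm4b* and *Icosl* and stood at 1.11 and 1.23, and *Dnmt3b* had none with enough fragments.

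**Figure D5:**
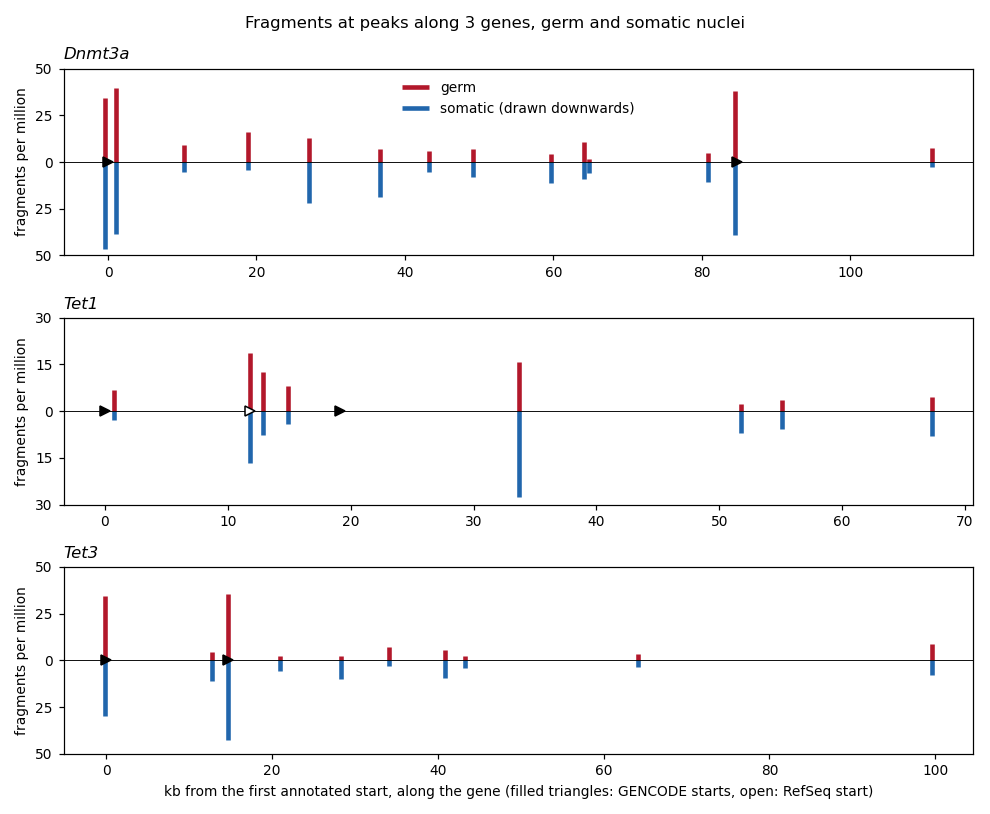
Fragments per 1000000 (FPM) at each peak of at least 50 fragments along Dnmt3a, Tet1 and Tet3 against the distance in kb from the first GENCODE start, for germ nuclei (upwards) and somatic nuclei (downwards), with filled triangles at GENCODE starts and an open one at the RefSeq start of Tet1. The Dnmt3a peak at its internal start, 84.7 kb on, holds 38.2 FPM in germ and 39.3 FPM in somatic nuclei, while the peak at 18.8 kb is 3.62 times higher in germ nuclei.

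Genes that work with the 8 were taken from 8 lists, with 49 of 50 genes having at least 100 UMIs. Of these, 10 were 2-fold or more higher in germ nuclei, 5 were as much lower and 34 lay between, with a median ratio of 1.14, against 1.03 over all genes and the shares of 16.6% and 20.2% given above. The de novo partners and germline guides held 4 of the 10. They were *Morc1* (124 times), *Piwil4* (62.1), *Spocd1* (38.0) and *Piwil2* (34.5), which take part in the silencing of transposons in male germ cells. Germline genes were put on this list by choice, and *Morc1* was among the leading genes of the germ cluster. Their high ratios in germ nuclei are thus no result about the list. *Morc1*, a repressor of transposons, stood at 381 CPM in germ and 3.08 CPM in somatic nuclei. The smallest ratios on that list were those of *Nsd1* (0.927) and *Ehmt1* (1.02), which are histone methyltransferases.

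Among the maintenance partners *Usp7*, a deubiquitinase of DNMT1 and UHRF1, was higher by 2.56 times (2.49 to 2.64), and the chromatin remodeler *Hells* stood at 1.53 (270 against 177 CPM). *Cdca7* (0.596) and the replication clamp *Pcna* (0.680) had the smallest ratios, and 0 of the 7 were 2-fold or more lower. *Uhrf2*, the paralog of *Uhrf1*, stood at 1.28 (427 CPM in germ nuclei). Among the readers of the mark, *Zbtb38* (2.20) and *Zbtb33* (1.28) had the largest ratios and *Zbtb4* (0.287) and *Mbd2* (0.543) the smallest. Among the genes of active demethylation and repair, *Neil2*, a DNA glycosylase, was higher by 4.53 times (3.83 to 5.37) and *Apex1*, an endonuclease of base excision repair, stood at 1.76, while *Gadd45g* (0.353) and *Gadd45a* (0.516) were at the other end. *Tdg*, which removes oxidised methylcytosine, stood at 0.988.

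*Dppa3*, which protects DNA from demethylation in the early embryo, was higher in germ nuclei by 3.58 times (3.14 to 4.09), and *Zfp57*, which keeps imprints methylated, was lower at 0.218 (0.184 to 0.258, 7.47 against 34.2 CPM). *Trim28* (1.14) and *Zfp445* (1.05) lay between. Of the TET regulators and cofactor enzymes, *Idh2* (0.372) and *Idh1* (0.469), which make the 2-oxoglutarate used by TET enzymes, were 2-fold or more lower in germ nuclei, and *Cxxc4* (1.14) and *Ogt* (0.912) had the largest ratios. Of the methyl donor genes, *Shmt1* (3.23) and *Mthfd1* (1.93) of the folate cycle had the largest ratios, and *Mat2a*, which makes the methyl donor, stood at 1.24. *Dnmt3c*, a rodent paralog next to *Dnmt3b* that methylates young transposons in male germ cells, held 94 UMIs in germ and 36 in somatic nuclei, a ratio of 7.04 (4.75 to 10.6). *Dnmt3b* and *Dnmt3c* are near-identical in part, and reads that fit either could be lost or split by the counting. *Trdmt1*, which methylates transfer RNA, stood at 1.24.

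The genes most like each of the 8 over 10 classes, among 10927 genes with at least 500 UMIs, were found by Pearson's r on log2(CPM + 1). For *Dnmt1* they were *Ccna2* (0.974), *Orc6* (0.966) and *Hist1h2ae* (0.964), and for *Uhrf1* *Tmpo* (0.948), *Lockd* (0.929) and *Aurkb* (0.927), of which *Ccna2*, *Orc6* and *Aurkb* act in DNA replication or division. For *Dnmt3a* they were *Dock1* (0.976), *Prrc1* (0.972) and *Zfp629* (0.970), and for *Dnmt3b* *Cemip* (0.920), *Mark4* (0.880) and *Acvrl1* (0.871). For *Dnmt3l* they were *Gm49457* (0.986), *B230354K17Rik* (0.976) and *Caprin2* (0.966). *Dnmt3l* itself is under the minimum, and germ nuclei held 59 of its 64 UMIs, so these r values rest on the germ point. *Tet1* was most like *Mapk10* (0.978), *Dtwd2* (0.976) and *Cetn3* (0.970), *Tet2* like *Lrrfip2* (0.894), *Ntrk2* (0.888) and *Lrig2* (0.870), and *Tet3* like *Tbc1d9b* (0.951), *Arl8a* (0.943) and *Ptbp1* (0.927). These values describe 10 points from 1 library, with the smallest class at 44 nuclei. By rank rather than by value several likenesses were lower. That of *Dnmt3a* was 0.624 to *Dock1* and 0.455 to *Zfp629*, and that of *Uhrf1* to *Tmpo* was 0.661. For *Dnmt3l* it was 0.565 to *Gm49457* and 0.440 to *Caprin2*. Others stayed as high, such as *Dnmt3b* to *Cemip* (0.939).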

How the data were processed

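RNA and ATAC of the same nuclei of E14.5 mouse testes were measured in 1 library each. Per the labels, the authors ran Cell Ranger ARC 2.0.1 on mm10, and the deposited matrix holds raw counts, UMIs per gene and transposase cut sites per peak, of which 87.1% of nonzero peak values were even. The deposited fragment list holds, per the file headers, a start and end for each unique fragment and a count of its read pairs (other values, 1.09 per fragment on average). From these, barcodes were kept as in the study's methods: more than 500 genes and from 250 to 25000 fragments at peaks, with more than 20% of all fragments lying there, and less than 10% of UMIs mitochondrial, 10% ribosomal and 0.5% haemoglobin. The highest 6.13% of Scrublet scores (scanpy 1.11.5) were removed by rank as doublets (470 nuclei), in place of the study's caller, and neither free RNA nor blacklisted regions were removed.

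Nuclei were clustered on both assays with Seurat 5.3.0 in R 4.3.3 (2000 variable genes, 30 components, resolution 0.3), without the 8 genes and the 111 peaks within 50 kb of them. A cluster was named from its markers. Levels are UMIs or fragments of a class over its total, with exact Poisson intervals for levels, exact conditional binomial intervals for ratios and Clopper-Pearson intervals for shares, all at 95%. Peak intervals use fragments, since cut sites come in pairs. Starts are from GENCODE vM21 on GRCm38, and promoter sequences from RefSeq on GRCm38.p6, where all 8 genes matched. The ratio calculation was tested on simulated data. All 8 genes were named, and of each pathway list the 2 largest and 2 smallest ratios, per gene the 3 most alike genes, and the largest and smallest peak away from the starts. A gene that this rule would name is not reported here. A few further genes of the lists and peaks were named after their values were seen. The members and lists were chosen with earlier results of these data known. Alternatives covered clustering, doublets, depth, scaling, free RNA, score lists and windows. Those that leave out germ cluster 13 or score nuclei within a cluster were added after the data were seen.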

Additional observations from a re-analysis of the deposited data

Results flagged for a closer look

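Per UMI, *Tet1* and *Tet3* moved in opposite directions with the cell cycle score in different classes, with 1 library behind all values, so that the difference between classes was not tested. High-score Sertoli, progenitor and Leydig nuclei held more UMIs each, and over equal numbers of nuclei neither gene fell there. *Tet1* went from 180 to 187 UMIs in Sertoli and 373 to 483 in progenitor nuclei. *Tet3* went from 405 to 508 in Sertoli, 754 to 953 in progenitor and 185 to 339 in Leydig nuclei. In germ nuclei *Tet1* rose from 1175 to 2187 UMIs and *Tet3* fell from 387 to 230. *Tet1* was 2.04 times higher in high-score than in low-score germ nuclei and stood at 0.719 in Sertoli and 0.808 in progenitor nuclei. The progenitor interval held 1 with G2/M genes alone (0.877, 0.765 to 1.01), between the highest and lowest 10% (0.958, 0.758 to 1.22) and without the nuclei over the automatic doublet threshold (0.845, 0.711 to 1.01). *Tet3* stood at 0.651 in germ, 0.868 in Sertoli and 0.789 in progenitor nuclei and at 1.21 (1.0 to 1.45) in Leydig nuclei, at the edge of counting error. The Sertoli interval held 1 with S phase genes alone (0.914, 0.803 to 1.04), between the highest and lowest 10% (0.951, 0.758 to 1.19) and without doublet removal (0.917, 0.812 to 1.04). The Leydig interval held 1 with S phase genes alone (0.968 to 1.39), with G2/M genes alone (0.993 to 1.43), between the highest and lowest 10% (0.965 to 1.78) and without the nuclei over the automatic doublet threshold (1.17, 0.923 to 1.49).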

How the results depend on the processing

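No paired analysis was possible because each assay has 1 library. Intervals cover counting error only, which is wide for the 64 *Dnmt3l* UMIs and for the fragments at starts without a peak. Germ over somatic RNA kept its side of 1 for each of the 8 genes under 11 of the 12 alternatives. The exception was UMIs per nucleus, which put *Dnmt1* at 1.57, *Uhrf1* at 1.22, *Dnmt3b* at 1.28, *Dnmt3a* at 0.961, *Tet3* at 0.905, *Tet1* at 9.96 and *Tet2* at 3.04, since germ nuclei hold more UMIs each. In 42 of the 96 values the ratio stayed within the interval of the reported one, *Dnmt3l* in all but 1. The *Dnmt3l* interval is wide, and its values inside it ran from 13.2 with clusters from ATAC alone to 82.9 with the mean of somatic class levels. With the automatic doublet threshold the ratios were 0.605 for *Dnmt1*, 0.340 for *Uhrf1*, 0.218 for *Dnmt3a*, 0.441 for *Dnmt3b*, 5.83 for *Tet1*, 1.42 for *Tet2* and 0.160 for *Tet3*. Without doublet removal *Dnmt3a* was 0.464, *Tet1* 4.12 and *Tet3* 0.431. Without germ cluster 13 *Uhrf1* was 0.426, *Dnmt3a* 0.312, *Dnmt3b* 0.452, *Tet1* 4.80, *Tet2* 1.36 and *Tet3* 0.278. With nuclei of at most 50000 UMIs *Uhrf1* was 0.436, *Dnmt3a* 0.312, *Tet1* 4.88 and *Tet3* 0.281. With stricter minimums *Dnmt1* was 0.593, *Dnmt3a* 0.458, *Tet1* 3.02, *Tet2* 1.38 and *Tet3* 0.451. At resolution 0.6, which keeps only cluster 8 as germ, *Dnmt1* was 0.576, *Uhrf1* 0.460, *Dnmt3a* 0.375, *Tet1* 2.17 and *Tet2* 1.39. With clusters from ATAC alone *Dnmt1* was 0.627, *Uhrf1* 0.409, *Dnmt3a* 0.304 and *Tet3* 0.265. Subtracting free RNA, at 39.0% of germ and 7.51% of somatic UMIs as the markers of other classes bound it, gave *Dnmt1* 0.529, *Uhrf1* 0.303, *Dnmt3a* 0.142, *Dnmt3b* 0.340, *Dnmt3l* 137, *Tet1* 6.33, *Tet2* 1.48 and *Tet3* 0.101. The mean of somatic class levels gave *Dnmt3a* 0.440, *Tet1* 4.72, *Tet2* 1.19 and *Tet3* 0.354, and median-of-ratios size factors gave *Tet2* 1.27. Among the counts, 8 in place of 5 genes of the lists and 4 in place of 2 of the 8 genes were 2-fold or more lower with the automatic doublet threshold, and 2 in place of 1 of the 8 were higher with a minimum of 1 UMI, which admits *Dnmt3l*. With at least 100 fragments, 0 peaks away from the starts were higher and 5 lower. The count of genes 1.5-fold or more higher in high-score nuclei fell from 3 to 1 in Leydig nuclei with the automatic doublet threshold, where *Uhrf1* (28.7) had under 50 UMIs, and from 3 to 1 in Sertoli nuclei with the highest and lowest 10%, where *Uhrf1* had under 50 UMIs and *Dnmt3b* stood at 1.41 (0.777 to 2.66). Of the ratios by cell cycle score whose interval excluded 1, 3 crossed it: *Dnmt3b* in Leydig nuclei with the automatic doublet threshold (0.991), *Dnmt3a* in germ nuclei with S phase genes alone (1.01) and *Tet2* within germ cluster 8 (1.03). With G2/M genes alone *Uhrf1* fell from 24.7 to 4.23 in Sertoli and from 11.9 to 4.80 in progenitor nuclei. Promoter ratios stayed within their intervals except with fragments per nucleus, where *Dnmt1* was 1.31, *Uhrf1* 1.14, *Dnmt3a* 1.20, *Dnmt3b* 1.32, *Tet2* 1.72 and *Tet3* 1.28. The cause was not tested.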
